A study of Mus musculus with 9 samples.

Results

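The 10 genes described here encode the Myc, Max and Mxd network, a family of transcription factors with a basic helix-loop-helix and leucine zipper region: Myc, Mycn, Mycl, Max, Mxd1, Mxd3, Mxd4, Mxi1, Mnt and Mlx. They were taken by symbol from deposited tables that hold 38197 gene symbols. A row was found under 9 of the 10 symbols, and Mycl was found under Mycl1, an older symbol of the same gene. All 10 passed the filter on low counts, which kept 14742 genes for testing.

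NSCs were derived from E14.1 cells, a wild type mouse ESC line of strain 129 that was the only line in these libraries. Every culture had received RA (retinoic acid) together with SAG, a compound that activates Shh signalling through Smo, given by the labels as 0 to 3 days in differentiation conditions (DDC). The study's methods put the change to medium without both somewhat later, but before the cells were taken. Cells carrying prominin-1, a marker at the surface of neural progenitors, were enriched with magnetic beads at 4.5DDC, 5.5DDC and 6.5DDC, with 3 libraries of polyadenylated RNA per time point. The labels also give these times as 4, 5 and 6 days. The labels do not say whether the 3 libraries of a time point were separate cultures, so p-values measure only the spread between these libraries.

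Library totals lay between 11066568 and 25506193 counts, at which 3 counts correspond to between 0.118 and 0.271 CPM (counts scaled to library size). Summed over 13 neural progenitor markers the level was 2303 to 3316 FPKM (reads scaled to transcript length and library size), against 2.44 to 6.5 FPKM for 10 pluripotency markers, of which Dppa3 and Fgf4 were at 0 FPKM in every library. Vim, with means of 1568 to 2044 FPKM, made up most of the progenitor sum. The libraries of replicate 1 had the lowest neuron marker sum and the highest endoderm marker sum of each time point. Their summed level of 14 neuron markers was 232 to 407 FPKM, below the 497 to 939 FPKM of replicates 2 and 3, and their summed level of 11 endoderm markers was 107 to 121 FPKM, above the 66.3 to 79.9 FPKM of the others. Krt18, Foxa1 and Krt8 made up most of the endoderm sum, with means of 39.5, 27.3 and 14.2 FPKM at 4.5DDC. No other gene of that list averaged above 3.54 FPKM at any time point. At 4.5DDC the neuron sums were 297, 708 and 497 FPKM in replicates 1, 2 and 3, so replicates 2 and 3 also differed.

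As background, Max is the shared partner of the network. Myc proteins pair with Max, bind the E-box CACGTG and activate genes for ribosome production, metabolism and cell growth. Mxd proteins, Mxi1 (also called Mxd2) and Mnt pair with Max on the same letters and recruit Sin3 and histone deacetylases, which repress those genes. Mlx is a Max-like partner that binds some Mxd proteins and Mnt, and that links the network to the glucose-sensing Mondo factors. In the developing nervous system Mycn is known for sustaining the growth of progenitors, and Mxd genes for being switched on as cells leave the cycle.

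The start-site windows of the members are shown because the network's own letters, and those of a cell cycle factor, can be read in some of them. Windows of 250 bases before to 50 bases after the start were taken from RefSeq on GRCm38.p6, and 9 of the 10 members matched (Myc had no entry and was not searched), with 11 windows in all because Mxi1 has 3. The E-box, searched as CACGTG on both strands, was found in the windows of Max, Mxd4, Mnt and Mlx, and in 7.15% of all 32851 windows. The lines give 46 bases around each, 5′ to 3′ on the strand of the gene, with the E-box in capitals; they come from chr12:76962226-76962271 (minus strand), chr5:34187904-34187949 (minus strand), chr11:74830781-74830826 (plus strand) and chr11:101087230-101087275 (plus strand).
Max: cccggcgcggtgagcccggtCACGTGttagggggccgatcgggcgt
Mxd4: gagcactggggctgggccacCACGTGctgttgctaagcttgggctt
Mnt: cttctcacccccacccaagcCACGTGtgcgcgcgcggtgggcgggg
Mlx: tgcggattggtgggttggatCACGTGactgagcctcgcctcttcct
The E-box began 3 bases before the start in Max, 40 in Mlx, 123 in Mnt and 219 in Mxd4.

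The windows of Mycn and Mxi1, the members called from 4.5DDC to 6.5DDC, held no CACGTG. After the levels had been seen, the windows were also searched on both strands for letters bound by E2F factors, TTTGGCGC, TTTCCCGC, TTTCGCGC and TTTGCCGC, which 2.26% of all windows hold. Of the 9 members searched Mycn alone had them, with 3 matches that begin 183, 179 and 168 bases before the start and of which the leftmost pair overlap. The line gives 63 bases at chr12:12941977-12942039 (minus strand) with the matches in capitals.
Mycn: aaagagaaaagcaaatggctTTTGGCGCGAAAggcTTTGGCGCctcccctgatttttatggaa
The Gli letters GACCACCCA were in none of the 11 windows and in 0.253% of all windows. A match describes letters in these windows and is not evidence of binding, and the lack of one says nothing about sites elsewhere.

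Between 4.5DDC and 6.5DDC Mycn mRNA fell and Mxi1 mRNA rose, and no other member passed the test. The call of Mycn did not hold without replicate 2 of 4.5DDC or replicate 2 of 6.5DDC. Mycn fell to 38.5% of its 4.5DDC mean and Mxi1 rose to 2.02 times its own. These 2 of 10 members are a share near the 18.7% of all genes tested, 9.21% higher and 9.53% lower at 6.5DDC (quasi-likelihood test of edgeR, Benjamini-Hochberg adjusted p under 0.05). In bulk libraries of this kind, a lower level in each cell and fewer cells that hold the RNA cannot be told apart.

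**Figure D1:**
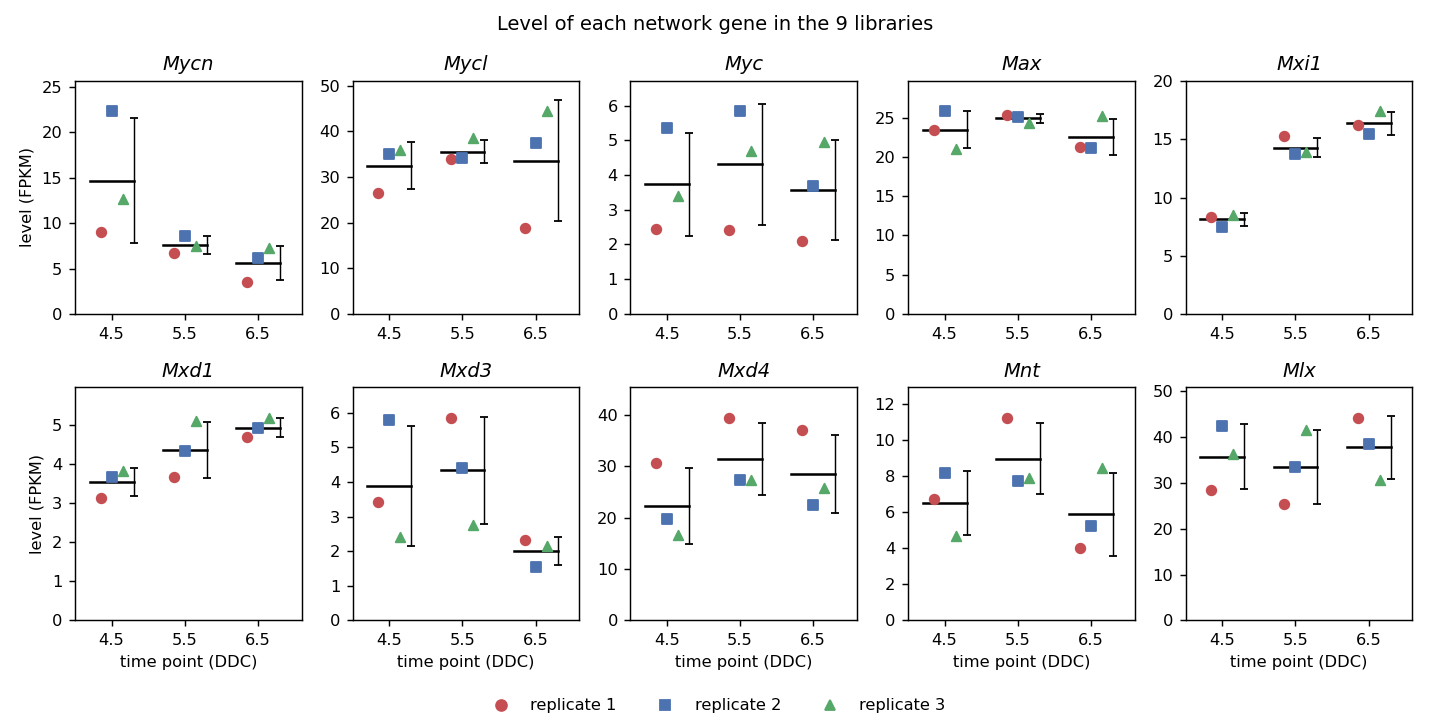
Level of each network gene in FPKM (vertical axes, linear from 0) in the 3 libraries of each time point (horizontal axes, DDC), with symbols for replicates 1 to 3, the mean as a line and the SD as an error bar beside it. Mycn falls from a mean of 14.7 to 5.65 FPKM and Mxi1 rises from 8.12 to 16.4 FPKM, while Max stays between 21.1 and 25.8 FPKM in all 9 libraries.

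Among the Myc genes, Mycn (chr12:12936093-12941914, minus strand) encodes N-Myc, a Myc protein known from embryonic neural progenitors. Its level in replicates 1, 2 and 3 was 9.01, 22.3 and 12.7 FPKM at 4.5DDC, 6.72, 8.62 and 7.48 FPKM at 5.5DDC and 3.57, 6.14 and 7.25 FPKM at 6.5DDC. Every library of 4.5DDC was above every library of the later time points, and replicate 1 was the lowest at each time point. The mean went from 14.7 ± 6.87 FPKM at 4.5DDC through 7.60 ± 0.957 FPKM at 5.5DDC to 5.65 ± 1.89 FPKM at 6.5DDC (SD, n = 3 each). Between 4.5DDC and 6.5DDC the log2 fold change was −1.39 (SE 0.33, 95% interval −2.12 to −0.67, adjusted p = 0.0187 by edgeR's quasi-likelihood test). Within replicate 1 the log2 ratio was −1.27 and within replicates 2 and 3 it averaged −1.39.

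The Mycn call rested on particular libraries. Without replicate 2 of 4.5DDC, the library at 22.3 FPKM, the log2 fold change was −1.005 (adjusted p = 0.0660), and without replicate 2 of 6.5DDC it was −1.48 (adjusted p = 0.0543), while over the other alternatives the adjusted p in edgeR, limma or DESeq2 ran from 5.51e-04 to 0.0443. From 4.5DDC to 5.5DDC the log2 fold change of Mycn was −0.97 (SE 0.32, adjusted p = 0.216), and from 5.5DDC to 6.5DDC it was −0.42 (SE 0.32, adjusted p = 0.496). The changes of these intervals differed by 0.55 on the log2 scale (95% interval −0.71 to 1.80, adjusted p = 0.818), so the data do not place the fall in one of them.

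Mycl (chr4:122995652-123002485, plus strand), which encodes L-Myc, was the most abundant Myc gene in every library. Its level was 26.6, 35.1 and 35.8 FPKM at 4.5DDC, 34.0, 34.2 and 38.4 FPKM at 5.5DDC and 18.9, 37.5 and 44.4 FPKM at 6.5DDC in replicates 1, 2 and 3. The time points overlapped and replicate 1 was the lowest at each. Its fitted log2 change over the whole span was 0.03 (95% interval −0.54 to 0.61, adjusted p = 0.937), and the sign turned in some other fits.

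Myc itself (chr15:61985391-61990374, plus strand), the founding member of the family, was the least abundant Myc gene in each library. It measured 2.44, 5.35 and 3.40 FPKM at 4.5DDC, 2.42, 5.83 and 4.69 FPKM at 5.5DDC and 2.09, 3.68 and 4.95 FPKM at 6.5DDC. The spread between replicates was wider than any change over time, with replicate 1 lowest at each time point. Between 4.5DDC and 6.5DDC its log2 change was −0.06, but the 95% interval of −0.93 to 0.80 leaves room for a change of nearly 1 in either direction (adjusted p = 0.920).

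As Mycn fell, its share of the Myc transcripts fell too and that of Mycl grew, although Mycl itself was not called. Mycn held 23.7%, 35.6% and 24.5% of the summed FPKM of Myc, Mycn and Mycl at 4.5DDC, 15.6%, 17.7% and 14.8% at 5.5DDC and 14.5%, 13.0% and 12.8% at 6.5DDC. The libraries of successive time points did not overlap in this share, which follows in part from the fall of Mycn and was not tested. The share of Mycl was 64.9 ± 7.83% at 4.5DDC and 78.2 ± 1.18% at 6.5DDC, and that of Myc 7.17 ± 1.18% and 8.35 ± 0.510% (SD, n = 3). The Myc genes summed to 50.9 ± 12.4 FPKM at 4.5DDC, to 47.4 ± 3.88 FPKM at 5.5DDC and to 42.8 ± 16.5 FPKM at 6.5DDC, within the spread of the libraries.

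Max (chr12:76937269-76962201, minus strand), the obligate partner of Myc, was the steadiest member. Its level was 23.5, 25.8 and 21.1 FPKM at 4.5DDC, 25.3, 25.1 and 24.3 FPKM at 5.5DDC and 21.2, 21.2 and 25.2 FPKM at 6.5DDC. All time points overlapped. Its log2 change between 4.5DDC and 6.5DDC was −0.06 (95% interval −0.33 to 0.22, adjusted p = 0.784). In FPKM, Max equalled 0.264 ± 0.0144 times the summed level of the Myc and Mxd genes at 4.5DDC and 0.239 ± 0.010 times at 6.5DDC (SD, n = 3).

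Among the repressors, Mxi1 (chr19:53310518-53375810, plus strand), a Mxd-type partner of Max that recruits Sin3, had the clearest change of the network. It measured 8.36, 7.50 and 8.51 FPKM at 4.5DDC, 15.3, 13.7 and 13.9 FPKM at 5.5DDC and 16.2, 15.5 and 17.4 FPKM at 6.5DDC. Each time point lay wholly above the one before it, and replicate 1 was not set apart from the others. Between 4.5DDC and 6.5DDC it rose by 0.998 on the log2 scale (SE 0.12, 95% interval 0.73 to 1.27, adjusted p = 0.00151 by edgeR). It was 1.02 within replicate 1 and averaged 0.99 within replicates 2 and 3. The call held in all 22 alternatives, whose adjusted p lay between 1.17e-11 and 0.00954.

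The larger step in the mean of Mxi1 was the earlier one. From 4.5DDC to 5.5DDC it was 0.78 on the log2 scale (SE 0.12, 95% interval 0.51 to 1.05), for which the unadjusted p was 8.13e-05 and the adjusted p 0.0749. Only 11 genes, 0.0746% of those tested, were called in that interval, and no member was, while Mycn and Mxi1 had an unadjusted p under 0.05, as did 15.4% of all genes. With a block for the replicate number Mxi1 was called (log2 fold change 0.78, adjusted p = 0.0302), in a fit that called 1.44% of all genes. It was also called with scaling to library totals only (adjusted p = 0.0477; 0.0814% of all genes), with DESeq2 (adjusted p = 7.67e-06; 3.80%), with a 2-level block for replicate 1 (adjusted p = 0.0114; 3.28%) and without the 3 libraries of replicate 1 (adjusted p = 0.0414; 3.31%). In the last of these fits Mycn was called as well (log2 fold change −1.15, adjusted p = 0.0493). For 5.5DDC to 6.5DDC the log2 fold change of Mxi1 was 0.22 (SE 0.12, adjusted p = 0.347). The difference between the intervals was −0.56 (95% interval −1.02 to −0.10, unadjusted p = 0.0221, adjusted p = 0.760). In that edgeR test 701 of the 14742 genes had an unadjusted p under 0.05 and none was called. The earlier step of Mxi1 is thus larger in the mean, but the adjusted test does not place the rise in one interval.

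**Figure D2:**
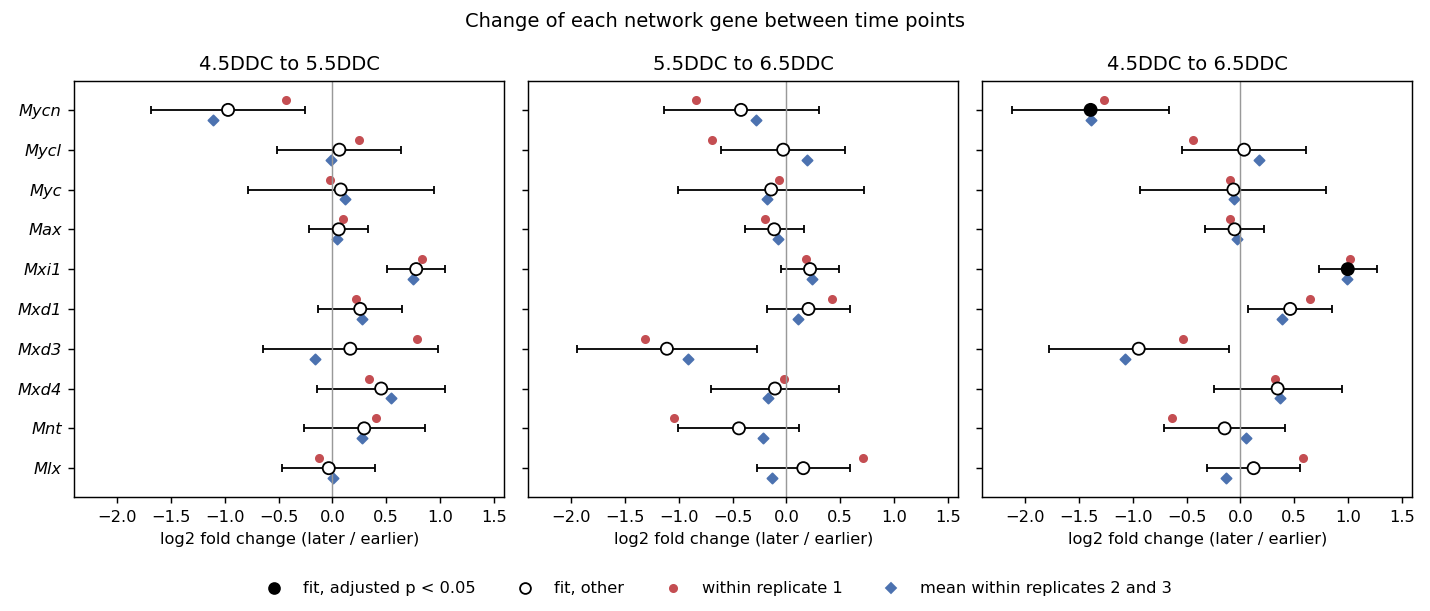
Log2 fold change of each network gene (horizontal axes, later over earlier) for the 3 pairs of time points, with 95% intervals from the fit over 9 libraries and small symbols for the log2 ratio within replicate 1 and its mean within replicates 2 and 3. Filled circles mark an adjusted p under 0.05, which Mycn (−1.39) and Mxi1 (0.998) reach from 4.5DDC to 6.5DDC and no gene reaches in the shorter intervals.

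Mxd1 (chr6:86647042-86669161, minus strand), the founding Mxd gene and known for its expression in differentiating cells, measured 3.13, 3.69 and 3.82 FPKM at 4.5DDC, 3.68, 4.35 and 5.11 FPKM at 5.5DDC and 4.71, 4.93 and 5.20 FPKM at 6.5DDC. Every library of 6.5DDC was above every library of 4.5DDC, with replicate 1 lowest each time. Over this span the log2 change was 0.46 (SE 0.17, 95% interval 0.07 to 0.85, unadjusted p = 0.0247, adjusted p = 0.0916), which did not pass the threshold.

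Mxd3 (chr13:55325168-55329823, minus strand) is the Mxd gene linked to cycling progenitors, in which it is expressed during S phase. Its level was 3.43, 5.79 and 2.42 FPKM at 4.5DDC, 5.85, 4.39 and 2.77 FPKM at 5.5DDC and 2.32, 1.55 and 2.16 FPKM at 6.5DDC. The 6.5DDC libraries were below all the others, in contrast to Mxd1 and Mxi1. In log2 terms the difference was −0.95 from 4.5DDC to 6.5DDC (SE 0.37, 95% interval −1.78 to −0.11, adjusted p = 0.104) and −1.11 from 5.5DDC to 6.5DDC (SE 0.37, unadjusted p = 0.0142, adjusted p = 0.189). It rests on 38 to 229 counts a library, and Myc on 64 to 179, the lowest ranges of the network.

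Mxd4 (chr5:34173883-34187720, minus strand) was the most abundant Mxd gene. It measured 30.7, 19.8 and 16.6 FPKM at 4.5DDC, 39.5, 27.4 and 27.4 FPKM at 5.5DDC and 37.0, 22.5 and 25.9 FPKM at 6.5DDC. Replicate 1 was the highest at each time point and within every replicate 4.5DDC was the lowest, but the time points overlapped. Over the whole span the log2 difference was 0.35 (SE 0.27, 95% interval −0.25 to 0.94, adjusted p = 0.382). A fit with a 2-level block for replicate 1 called Mxd4 (log2 fold change 0.35, adjusted p = 0.0434) and Mxd1 (0.47, adjusted p = 0.0441) besides Mycn and Mxi1, and 29.7% of all genes.

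Mnt (chr11:74830920-74845725, plus strand), a broadly expressed Max partner that antagonises Myc, measured 6.72, 8.20 and 4.67 FPKM at 4.5DDC, 11.2, 7.77 and 7.93 FPKM at 5.5DDC and 4.00, 5.23 and 8.47 FPKM at 6.5DDC. No pair of time points was separated. Its log2 fold change was 0.30 from 4.5DDC to 5.5DDC (SE 0.25, adjusted p = 0.627) and −0.44 from 5.5DDC to 6.5DDC (SE 0.25, adjusted p = 0.366), where replicate 1 gave −1.05 and replicates 2 and 3 −0.22.

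Mlx (chr11:101087277-101092207, plus strand), the Max-like partner of the Mondo factors, measured 28.4, 42.5 and 36.2 FPKM at 4.5DDC, 25.3, 33.5 and 41.6 FPKM at 5.5DDC and 44.2, 38.5 and 30.6 FPKM at 6.5DDC. The time points overlapped. Its log2 difference, 6.5DDC over 4.5DDC, was 0.12 (95% interval −0.31 to 0.55, adjusted p = 0.684). Replicate 1 alone gave 0.59 and replicates 2 and 3 averaged −0.13. Of its exonic bases in GENCODE M21, 19.3% also lie in exons of Psmc3ip on the opposite strand, against 6.06% of Mxd4, 4.43% of Mxd3, 2.84% of Mxi1 and none of the other 6 members. Whether reads were counted by strand is not given in the sources used here, so reads of such pairs cannot be told apart.

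Over the whole time course 2 members, Mycn (adjusted p = 0.0445) and Mxi1 (adjusted p = 0.00524), differed between any time points, as did 9.63% of all genes. The call of Mycn here held in 8 of 21 alternatives, and its adjusted p reached 0.152 without replicate 2 of 4.5DDC. With the 2-level block and without replicate 1, Mxd4 was called as well, in fits that called 22.3% and 22.7% of all genes. From 5.5DDC to 6.5DDC no member was called, against 33 genes or 0.224% of all, and Mxd3 alone of the 10 had an unadjusted p under 0.05 in edgeR, as did 18.5% of all genes. DESeq2 called no member there either.

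In FPKM, the libraries of 4.5DDC and 6.5DDC did not overlap for 4 members (Mycn, Mxd1, Mxd3 and Mxi1), against 34.5% of all genes tested. From 4.5DDC to 5.5DDC Mycn and Mxi1 did not overlap (23.8% of all genes), and from 5.5DDC to 6.5DDC Mxd3 and Mxi1 did not (24.0%). Each of these pairs had a two-sided exact permutation p of 0.1, the smallest that 3 libraries against 3 can give. The counts are near the background of all genes.

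The spread between replicates was patterned. Replicate 1 was the lowest library of all 3 time points for Myc, Mycn, Mycl and Mxd1 and the highest for Mxd4, so that 5 of 10 members had replicate 1 outermost on the same side each time, against 21.9% of all genes. The lower neuron marker sum and the higher endoderm marker sum of replicate 1, the latter mostly Krt18, Foxa1 and Krt8, move with these members. So do its summed crest and glial markers, lowest at each time point, and its pluripotency markers, highest at each. For crest and mesenchyme markers it had 14.1 FPKM at 4.5DDC, against 26.1 and 33.4 FPKM in replicates 2 and 3. The part of these markers in the levels was not tested.

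At 4.5DDC the order of the means was Mlx (35.7 ± 7.08 FPKM), Mycl (32.5 ± 5.12), Max (23.4 ± 2.36), Mxd4 (22.4 ± 7.39), Mycn (14.7 ± 6.87), Mxi1 (8.12 ± 0.548), Mnt (6.53 ± 1.78), Mxd3 (3.88 ± 1.73), Myc (3.73 ± 1.48) and Mxd1 (3.55 ± 0.365 FPKM, SD, n = 3 each). Neighbours overlapped in this order except Mycl over Max and Mycn over Mxi1. At 6.5DDC the order was Mlx (37.8 ± 6.81 FPKM), Mycl (33.6 ± 13.2), Mxd4 (28.5 ± 7.58), Max (22.5 ± 2.33), Mxi1 (16.4 ± 0.975), Mnt (5.90 ± 2.31), Mycn (5.65 ± 1.89), Mxd1 (4.95 ± 0.242), Myc (3.57 ± 1.43) and Mxd3 (2.01 ± 0.408 FPKM). Neighbours were then separated only between Max and Mxi1 and between Mxi1 and Mnt. At 5.5DDC 4 of the 9 neighbouring pairs were separated, Mxd4 over Max, Max over Mxi1, Mxi1 over Mnt and Mycn over Mxd1. Mycn and Mxi1 had exchanged places, since Mycn was above Mxi1 in all 3 libraries of 4.5DDC and below it in all 6 later ones. Over the 9 libraries Mlx was above 78.1% of genes tested and Mycl above 77.2%, whereas Myc was above 27.2% and Mxd3 above 25.5%.

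The repressor side as a sum was compared with the Myc side by replicate number, although the numbers were not found to pair 4.5DDC with 6.5DDC. The summed FPKM of Mxd1, Mxd3, Mxd4 and Mxi1 was 45.6, 36.7 and 31.4 in replicates 1, 2 and 3 at 4.5DDC, 64.2, 49.9 and 49.1 at 5.5DDC and 60.3, 44.5 and 50.6 at 6.5DDC. Divided by the summed FPKM of the Myc genes this gave 1.20, 0.586 and 0.604 at 4.5DDC, 1.49, 1.03 and 0.971 at 5.5DDC and 2.46, 0.941 and 0.895 at 6.5DDC. The ratio was higher at 5.5DDC and at 6.5DDC than at 4.5DDC in each replicate, but replicate 1 of 4.5DDC was above replicates 2 and 3 of both later time points. The means were 0.796 ± 0.349, 1.16 ± 0.285 and 1.43 ± 0.888 (SD, n = 3), so the time points overlapped. Mxd4 made up 58.0 ± 8.04% of the Mxd sum at 4.5DDC and 54.4 ± 6.08% at 6.5DDC, and Mxi1 22.0 ± 4.60% and 32.0 ± 4.42%. No test was made of these sums, which rest on chosen members.

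**Figure D3:**
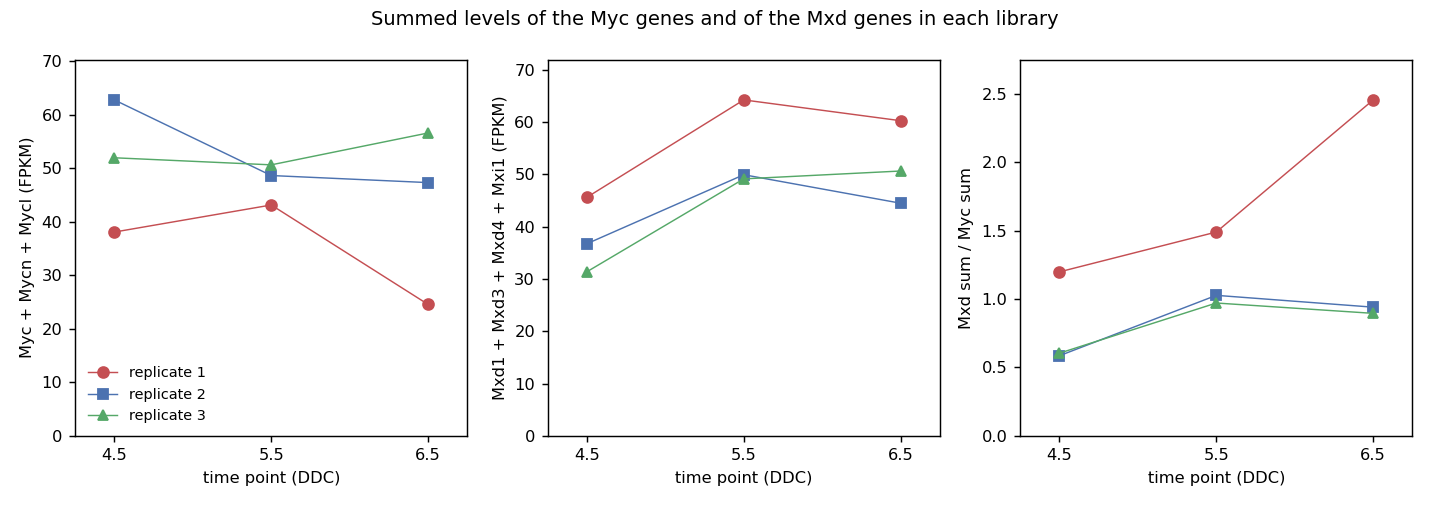
Summed FPKM of the Myc genes (left), of the Mxd genes (middle) and the ratio of the Mxd to the Myc sum (right) at 4.5, 5.5 and 6.5DDC, with 1 line for each replicate number. Replicate 1 lies lowest in the Myc sum and highest in the ratio at each time point, and its ratio reaches 2.46 at 6.5DDC against 0.941 and 0.895 in the other replicates.

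Of 20 genes for cofactors of Myc and its turnover machinery 7 were called lower from 4.5DDC to 6.5DDC and none higher, beside 9.53% of all genes called lower. Their median log2 fold change was −0.31 against 0.00 over all genes tested. The count was 2 without replicate 2 of 4.5DDC, where 4.25% of all genes were called lower, and 3 without replicate 2 of 6.5DDC, where 3.70% were. The largest falls with a mean of at least 2 FPKM were Ruvbl2, a helicase of Myc-bound chromatin complexes (36.4 ± 20.4 to 12.6 ± 4.33 FPKM, log2 fold change −1.55, adjusted p = 0.0232), and Aurka, the kinase that protects N-Myc from degradation (62.1 ± 5.74 to 23.9 ± 7.27 FPKM, −1.53, adjusted p = 0.00228). Skp2, Cip2a, Kat2a and Ep400 were among the others that fell. Of 19 genes of the Sin3-HDAC complex that Mxd proteins recruit, 3 were called lower (Brms1, Ing1 and Sap130) and none higher, with a median of −0.18. Without replicate 2 of 4.5DDC or of 6.5DDC 0 were called. The share called lower with all libraries is not far from the 9.53% of all genes. Brms1 changed by −0.82 (adjusted p = 0.0358) and Ing1 by −0.41 (adjusted p = 0.0483). Of 3 further partners of Max and Mlx none was called with all libraries, and 1, Mlxipl, was called lower without replicate 3 of 6.5DDC. Mga, a Max partner of germ cell gene repression, went from 37.0 ± 9.32 to 40.3 ± 2.80 FPKM (log2 fold change 0.15, adjusted p = 0.587) and Mlxip from 9.50 ± 0.926 to 8.16 ± 2.30 FPKM (−0.29, adjusted p = 0.330).

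Genes known to be activated by Myc were called in 1 direction from 4.5DDC to 6.5DDC. Of 30 genes of the nucleolus and ribosome biogenesis 23 fell and none rose, with a median log2 fold change of −0.86. Rrp9, which processes pre-ribosomal RNA, changed by −2.03 (16.5 ± 5.84 to 5.68 ± 2.36 FPKM, adjusted p = 0.0254) and Rrp12, which exports ribosomal subunits, by −1.73 (8.06 ± 2.39 to 2.45 ± 0.674 FPKM, adjusted p = 0.00305). Of 27 metabolic targets with a row 13 were called lower and none higher (median −0.66), led by Cad, the enzyme that opens pyrimidine synthesis (64.1 ± 17.8 to 17.6 ± 3.68 FPKM, log2 fold change −1.97, adjusted p = 0.00151), and Shmt1 of one-carbon metabolism (−1.78, adjusted p = 0.00641). Of 7 genes of translation initiation 3 were called lower and none higher (median −0.63), of which Eif5a changed by −1.12 (381 ± 105 to 178 ± 37.2 FPKM, adjusted p = 0.0111) and Eif3b by −0.88 (adjusted p = 0.0146).

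These counts compare with 9.53% of all genes called lower. Without the 3 libraries of replicate 1, in a fit that called 31.3% of all genes and 14.8% lower, they were 27, 22 and 7. Without replicate 2 of 6.5DDC they were 12, 4 and 0 beside 3.70% of all genes called lower, and without replicate 2 of 4.5DDC 14, 5 and 1 beside 4.25%, so the calls of all genes dropped in these fits too. In the shorter intervals no gene of these lists was called.

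Genes known to be repressed by Myc or driven by Mlx moved both ways. Of 10 growth arrest genes 3 were called higher and 1 lower (median 0.19), and 0 were called without replicate 2 of 4.5DDC or of 6.5DDC. Over all genes 9.21% were called higher and 9.53% lower. Ndrg2 rose by 1.53 on the log2 scale (0.789 ± 0.252 to 2.30 ± 1.21 FPKM, adjusted p = 0.0376), Ndrg1 by 1.02 (adjusted p = 0.0416) and the CDK inhibitor Cdkn1b by 0.50, whereas the CDK inhibitor Cdkn2b fell by 1.05 (5.08 ± 0.989 to 2.45 ± 0.523 FPKM, adjusted p = 0.0249). Of 8 tested targets of the Mondo factors and Mlx 2 were called higher and 1 lower (median 0.43). With single libraries left out 2 to 5 were called, 5 of them (2 higher and 3 lower) without replicate 1 of 5.5DDC. The calls of all genes in such fits ran from 1125 to 3132, against 2763 with all libraries. Txnip, which restrains glucose uptake, rose by 1.57 (98.8 ± 23.9 to 301 ± 114 FPKM, adjusted p = 0.0229) and its relative Arrdc4 by 0.91 (32.0 ± 2.56 to 53.8 ± 7.65 FPKM, adjusted p = 0.00789), while the fatty acid synthase Fasn fell by 1.55 (61.1 ± 33.3 to 17.6 ± 10.2 FPKM, adjusted p = 0.00947).

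**Figure D4:**
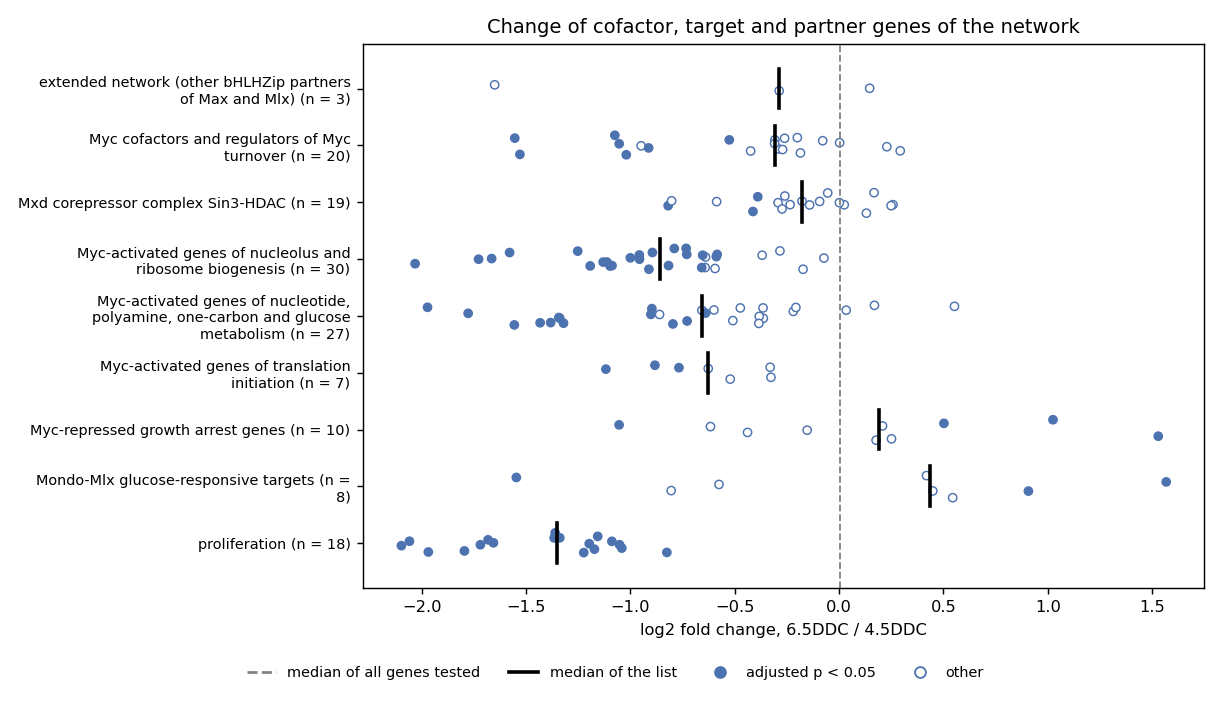
Log2 fold change from 4.5DDC to 6.5DDC (horizontal axis) of each tested gene in 9 lists of partners, cofactors and targets of the network, with the median of each list as a black bar and that of all genes tested as a dashed line at 0.00. Filled circles mark an adjusted p under 0.05, and the proliferation and ribosome biogenesis lists lie wholly to the left with medians of −1.35 and −0.86.

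Proliferation genes and markers of other cell types moved over the same span, and their part in the changes of the network was not tested. All 18 proliferation genes, of which Tyms is also in the metabolic list, were called lower from 4.5DDC to 6.5DDC (median −1.35), beside 9.53% of all genes. Mcm5 fell by 2.1 on the log2 scale (65.4 ± 12.9 to 15.2 ± 5.57 FPKM) and Rrm2 by 2.06 (186 ± 30.1 to 45.5 ± 12.4 FPKM). Without replicate 2 of 6.5DDC 12 of the 18 were called lower, beside 3.70% of all genes, which counts calls and not directions. The marker counts that follow stand beside 9.21% of all genes called higher and 9.53% called lower. Of 14 neuron markers 4 were called higher and 1 lower. Among them Syt1 (2.23 ± 0.640 to 20.4 ± 3.64 FPKM) and Gata3 (1.38 ± 0.361 to 5.61 ± 2.62 FPKM) rose, and Isl1 (23.9 ± 6.93 to 4.44 ± 0.818 FPKM) fell. Of 13 progenitor markers Prom1, the sorted antigen, was called higher (79.1 ± 14.3 to 183 ± 27.2 FPKM) and Sox3 and Nkx6-1 were called lower. The summed level of 13 neural crest and mesenchyme markers was 14.1 to 33.4 FPKM at 4.5DDC and 36.6 to 123 FPKM at 6.5DDC. Of 10 tested 9 were higher at 6.5DDC (median log2 fold change 1.32), and Twist1 alone was called. Of 6 tested glial markers Aldh1l1 and Aqp4 were called higher, and of 3 tested blood and endothelial markers Kdr was. The marker calls moved with single libraries. So did the calls of all genes, which ran from 1125 to 3132 with 1 library left out, against 2763 with all libraries. Of the progenitor markers 5 were called without replicate 1 or 3 of 4.5DDC or replicate 3 of 6.5DDC. Without replicate 2 of 4.5DDC or of 6.5DDC 1 was called, where 4.25% and 3.70% of all genes were called lower. Of the crest markers 0 were called without replicate 1 or 2 of 4.5DDC or replicate 2 of 5.5DDC or 6.5DDC, 2 without replicate 1 of 5.5DDC and 3 without replicate 1 of 6.5DDC. Of the glial markers 4 were called without replicate 1 of 5.5DDC, 3 without replicate 1 of 4.5DDC and 1 without replicate 2 or 3 of 4.5DDC or 5.5DDC or replicate 2 of 6.5DDC. None of the 8 tested endoderm markers, of which Foxa1 and Krt18 were the most abundant, was called by edgeR with all libraries and no block. In other edgeR fits 1 was called without replicate 1 of 4.5DDC or of 6.5DDC. With the 2-level block, which called 29.7% of all genes, 5 were called (4 higher, 1 lower). The replicate block called 4 (3 higher, 1 lower), a count that was not compared with all genes. Of 10 pluripotency markers 2 were tested, Klf4 and Esrrb, and neither was called, while Dppa5a, the most abundant after Klf4, did not pass the filter on low counts.

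The genes whose log2 CPM over the 9 libraries was most like that of Mycn, among 11986 genes averaging 2 FPKM or more, were Gli1 (Pearson r = 0.973), Ears2 (0.971) and Rrs1 (0.965). Gli1, a transcription factor of the Shh pathway, went from 4.80 ± 3.47 FPKM at 4.5DDC to 1.50 ± 0.503 at 5.5DDC and 0.563 ± 0.346 at 6.5DDC. Rrs1, a ribosome assembly factor, went from 13.3 ± 3.10 to 7.47 ± 0.949 and 6.05 ± 0.925 FPKM. Those most like Mxi1 were Mdga1 (r = 0.991), Klhl5 (0.987) and Tshz2 (0.985), of which Tshz2 went from 12.1 ± 1.74 to 32.4 ± 4.79 and 40.8 ± 5.49 FPKM. These are descriptions over libraries that share time points and replicate numbers, and carry no test.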

How the data were processed

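RNA from 9 libraries of prominin-1-sorted NSCs was analysed, 3 per time point, grouped by the sample titles. The members and gene lists were chosen with earlier results of these data known. The authors mapped reads to GRCm38 with TopHat (v2.0.4) and deposited htseq-count (v0.6.1) values per gene; the deposited values are treated as estimated counts, since 98 symbols (no member among them) hold non-whole values, and were rounded. The authors computed FPKM with Cufflinks (v2.1.1), used here as levels. The deposited log2 values, from voom without normalization, matched the counts and were not tested. The annotation release behind the counts is not given in the sources used here.

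Counts were tested with edgeR 4.0.16 in R 4.3.3 (filterByExpr, 14742 genes, TMM factors 0.951 to 1.04, 1 quasi-likelihood fit over 9 libraries with 6 residual degrees of freedom, Benjamini-Hochberg adjustment, threshold 0.05); the procedure was tested on simulated data. After TMM the log2 fold change of the median gene, 6.5DDC over 4.5DDC, was 0.0040. Fold changes come from counts and levels from FPKM, so a ratio of FPKM means can differ from the fold change. Alternatives used limma 3.58.1, DESeq2 1.42.0, other scalings, filters and blocks, limma fits of log2 FPKM (pseudocount 1 or 0.1) and libraries left out. Leaving out all of replicate 1 was chosen after seeing the data. Tables used Python 3.11.15 and pandas 2.3.3. Positions and exons are from GENCODE M21, promoter windows from RefSeq.

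Genes named are the 10 members, up to 2 largest rises and 2 largest falls of each list among called genes whose higher time point reached 2 FPKM, otherwise the 2 most abundant, and the 3 genes most like each called member. Esrrb, Mlxipl, Cdkn1b, Sap130, Skp2, Cip2a, Kat2a and Ep400 were named after their values were seen.

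Deviations from the time point means correlated between libraries of the same replicate number at 0.733, 0.380 and 0.440 between 4.5DDC and 5.5DDC, and at 0.453, 0.346 and 0.200 between 5.5DDC and 6.5DDC. With every value over 0.1, the numbers, which come from the sample titles, were taken to pair adjacent time points. Replicates 2 and 3 correlated as highly across numbers (0.229 to 0.393), so this sets replicate 1 apart but does not show that numbers 2 and 3 pair. Between 4.5DDC and 6.5DDC the correlations were 0.375, −0.0189 and −0.181, below the 0.430 and 0.449 of replicate 2 with 3 and 3 with 2, so the numbers do not pair that span and within-replicate values over it only join numbers. Replicates 2 and 3 of 5.5DDC differed least (chi-square 2.46 per gene, against 23.9 to 62.7 in other pairs) but by more than sampling noise, and were kept separate. Floors of 3 counts cover counting error only.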

Additional observations from a re-analysis of the deposited data

How the results depend on the processing

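Of 660 refits of the 30 member fold changes, 615 kept their direction and side of the threshold, 35 changed sign, 2 lost the call and 8 gained one. From 4.5DDC to 6.5DDC, 4 members were called with the 2-level block for replicate 1, and 1 to 2 with libraries left out. From 4.5DDC to 5.5DDC, 1 member (Mxi1) was called with library totals only, DESeq2, the replicate block and the 2-level block, and 0 to 2 with libraries left out. Across any time points, 1 member (Mxi1) was called with upper-quartile scaling, library totals only, limma voom, and limma on log2(FPKM + 1) and log2(FPKM + 0.1). Mycn had an adjusted p of 0.0505 to 0.112 in these fits, and the count of 1 was not compared with all genes. The 2-level block called 3 (Mxd4 added, adjusted p = 0.0333, with 22.3% of all genes called). With libraries left out 1 to 3 were called (Mxd4 added without replicate 1, adjusted p = 0.0482, with 22.7% of all genes called). The replicate block called 1 member from 4.5DDC to 5.5DDC and changed no other call of a member.

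The sign changes all concern uncalled changes. The log2 fold change of Mycl from 4.5DDC to 6.5DDC was −0.016 with voom, −0.027 and −0.030 with limma on log2 FPKM (pseudocounts 1 and 0.1), −0.011 with the replicate block and −0.0091 with the 2-level block. With libraries left out it ran from −0.18 to 0.30 (4.5DDC to 5.5DDC −0.065 to 0.17, 5.5DDC to 6.5DDC −0.25 to 0.24). For Myc these ranges were −0.31 to 0.21, −0.16 to 0.36 and −0.41 to 0.096, and for Mlx −0.13 to 0.24, −0.16 to 0.076 and −0.14 to 0.28. Mxd3 from 4.5DDC to 5.5DDC ran from −0.21 to 0.51, Mxd4 from 5.5DDC to 6.5DDC from −0.37 to 0.092 and Mnt from 4.5DDC to 6.5DDC from −0.44 to 0.045. The mean Mxd to Myc ratio was 1.06 at 4.5DDC, 1.57 at 5.5DDC and 1.94 at 6.5DDC in TMM-scaled CPM, which is not per length. In FPKM it was 0.796, 1.16 and 1.43. From 5.5DDC to 6.5DDC the ratio rose in replicate 1 alone (1.98 to 3.30 in CPM) and fell in replicates 2 and 3, in both measures.

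Over all genes, calls from 4.5DDC to 6.5DDC went from 2763 to 1125 without replicate 2 of 6.5DDC, 1152 without replicate 2 of 4.5DDC and 4586 without replicate 1. DESeq2 called 495 genes from 4.5DDC to 5.5DDC against 11, and 662 genes from 5.5DDC to 6.5DDC against 33. The replicate block called 212 and 195 genes there. The causes were not tested. Myc, at 64 to 179 counts a library, and Mxd3, at 38 to 229, have the widest intervals from 4.5DDC to 6.5DDC.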
